A study of Mus musculus with 3 samples.

Results

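TRP, Piezo and related cation channels open in response to heat, cold, touch, stretch, lipids or calcium release, and their expression was described in Lepr-marked cells sorted from the mouse superior cervical ganglion, a sympathetic ganglion of the neck. The members were taken by gene name from the TRP, polycystin, mucolipin, Piezo and Tmem63 families, by a rule that uses no measured value. They came to 31 genes of 52550 in the deposited table. The study has 1 group of 3 libraries, called replicates 1 to 3, which the labels give as separate biological replicates. The source animals were male LepRCRE::Ai32 mice at 10 weeks of age, with no treatment named. Cre recombinase is driven in cells that use the leptin receptor gene, and the Ai32 reporter stays on afterwards, so it marks cells with present or past activity of that driver. Live YFP-positive cells were sorted by flow cytometry and amplified with Smart-Seq2, and the sources used here do not say how many animals or cells went into a library. With no second group, levels could be compared only with a fixed level, between genes and between libraries.

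TRP channels are membrane proteins that let cations, often calcium, into the cytosol. In sensory neurons TRPV1, TRPM8 and TRPA1 are the receptors for heat and capsaicin, for cold and menthol, and for irritants. PIEZO1 and PIEZO2 open when the membrane is stretched, the TMEM63 proteins respond to stretch or osmotic change, mucolipins release calcium from lysosomes, and polycystin-2 works in primary cilia and the endoplasmic reticulum. The series title calls the sorted cells perineurial, that is, cells of the sheath that surrounds bundles of nerve fibres and forms a diffusion barrier.

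The libraries were close in depth: at least 7250206 to 7792213 reads on genes and 17012 to 18093 genes with a read. Mitochondrially encoded genes took 19.88 to 21.12% of the TPM. Markers of several cell types were present. By the limma test described further on, 16.1% of all genes tested were called above 1 TPM and 13.5% below. Of 16 perineurial markers, 4 were called above and 2 below, with a summed level of 537, 817 and 647 TPM in replicates 1, 2 and 3, and Krt19 had no read. Of 14 satellite glia and Schwann cell markers, 11 were above, with sums of 35100, 28900 and 31500 TPM. Fibroblast markers were above in 7 of 12, with sums of 6960, 9670 and 8330 TPM and Pi16 at no read. Endothelial markers were above in 4 of 12 (433, 501 and 321 TPM). Mural markers were above in 5 of 12 (502, 362 and 135 TPM), with Tagln at no read. Over all genes tested, 24.5% reached 1 TPM in every library. It was reached by 7 of 16 perineurial, 12 of 14 glial and 9 of 12 fibroblast markers. Endothelial and mural markers reached it in 9 of 12 and 5 of 12. Of these lists, the glial and fibroblast ones had the highest sums. Fewer cells of a type and less RNA per cell cannot be told apart in these bulk libraries. Lepr, the gene that marks the sort, stood at 363, 32.1 and 54.0 TPM.

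Bases just before the start of 4 members are shown first, because they differ in the sequence features described further on. Sequences were taken from RefSeq on GRCm38.p6 and end before the first base of both the RefSeq transcript and the GENCODE M21 gene. For the mucolipin gene Mcoln1 (chr8:3500269-3500456, plus strand) and the channel-kinase gene Trpm7 (chr2:126876262-126876511, minus strand), capitals mark CACGTG, the palindromic core of the element that the lysosomal regulator TFEB reads. For the polycystin gene Pkd2 (chr5:104459207-104459449, plus strand) and for Piezo1 (chr8:122551330-122551579, minus strand), capitals mark each CG.
Mcoln1: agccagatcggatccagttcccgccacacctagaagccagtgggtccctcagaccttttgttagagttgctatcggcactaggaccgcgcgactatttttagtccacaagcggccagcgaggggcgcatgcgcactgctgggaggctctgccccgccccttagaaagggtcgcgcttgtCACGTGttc
Trpm7: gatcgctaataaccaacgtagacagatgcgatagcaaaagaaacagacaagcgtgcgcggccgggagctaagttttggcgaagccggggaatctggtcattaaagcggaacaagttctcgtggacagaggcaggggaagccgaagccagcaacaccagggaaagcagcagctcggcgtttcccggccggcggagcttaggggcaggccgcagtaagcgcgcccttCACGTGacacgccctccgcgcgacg
Pkd2: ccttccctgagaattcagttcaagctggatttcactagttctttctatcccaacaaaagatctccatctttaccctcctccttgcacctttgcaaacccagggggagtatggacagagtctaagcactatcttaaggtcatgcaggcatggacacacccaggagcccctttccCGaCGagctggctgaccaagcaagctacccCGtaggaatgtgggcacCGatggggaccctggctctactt
Piezo1: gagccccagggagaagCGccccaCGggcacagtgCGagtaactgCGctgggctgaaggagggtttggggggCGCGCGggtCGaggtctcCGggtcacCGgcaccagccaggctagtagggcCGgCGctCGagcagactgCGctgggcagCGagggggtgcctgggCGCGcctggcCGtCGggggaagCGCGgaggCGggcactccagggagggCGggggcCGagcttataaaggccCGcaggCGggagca
Mcoln1 and Trpm7 each hold 1 CACGTG in the stretch shown. Pkd2 holds 4 CG dinucleotides in its 243 bases, whereas Piezo1 holds 26 in 250. The levels ran the other way for this pair, with Pkd2 among the highest members and Piezo1 among the lowest.

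**Figure D1:**
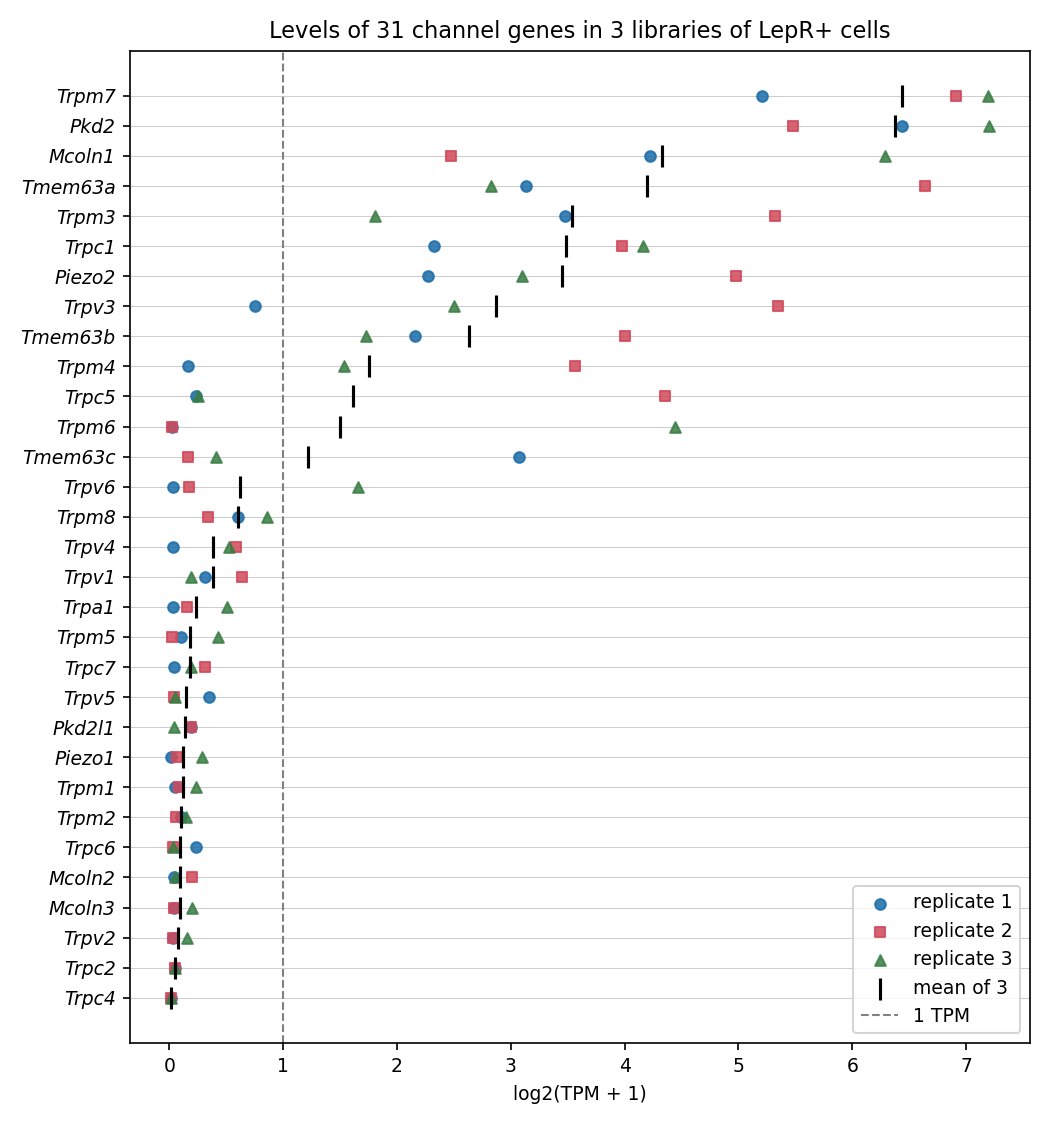
Level of the 31 channel genes in 3 libraries of sorted cells on the log2(TPM + 1) axis, with 1 point for each replicate, a bar at their mean and a dashed line at 1 TPM. Points of a gene without a read show the part of a read that the deposited values hold for every gene. Trpm7 and Pkd2 lie highest, 8 genes lie at 1 TPM or more in every replicate, and 17 lie under 1 TPM in every replicate.

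Each gene's mean log2(TPM + 1) was compared with the value at 1 TPM by limma, with Benjamini-Hochberg adjustment over all 27395 genes that had a read, and a gene was called at an adjusted p under 0.05. TPM, a gene's share of all transcripts in a library, is scaled for gene length, so levels of different genes can be set side by side roughly. For most genes the length behind the values covers all annotated exons, whether or not these cells use them. Over all genes tested, 16.1% were called above 1 TPM and 13.5% below. Of the 31 members, 29 had a read and were tested: 3 (Trpm7, Pkd2 and Trpc1) were called above, 10 below and 16 neither. Without adjustment, p was under 0.05 for 7 members above and 13 below. The count above is a smaller share than the background and the count below is a larger one, and nothing more is read from either. At least 1 TPM in every library was reached by 8 members, 27.6% of those tested, against 24.5% of all genes tested. The median level of the tested members was 0.60 on the log2(TPM + 1) scale, against 0.89 for all genes tested.

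Trpm7, which fuses a magnesium- and calcium-passing channel to a kinase, had the highest mean level of the members, though not separable from Pkd2. It measured 35.9, 119.0 and 145.5 TPM in replicates 1, 2 and 3, from 1037, 3445 and 3941 reads. Replicate 1 was the low library, and replicates 2 and 3 lay close together. The mean was 100.1 ± 57.2 TPM (SD, n = 3), which is 5.44 above the log2 level of 1 TPM (SE 0.52, limma adjusted p = 0.0148), and 94.5% of the tested genes had a lower mean. The call was lost when any replicate was left out, with limma adjusted p = 0.0686, 0.0900 and 0.0967 without replicates 1, 2 and 3. Without replicate 1 or 2 limma called no gene of the whole table above, so the loss there holds for every gene, also for Pkd2 and Trpc1. Without replicate 3 it called 2434 genes above, against 4424 with all 3 libraries.

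Pkd2, encoding polycystin-2, measured 85.4, 43.7 and 146.0 TPM (2218, 1137 and 3553 reads). Here replicate 2 was the low library. Its mean of 91.7 ± 51.4 TPM (SD, n = 3) lay 5.37 above the log2 level (SE 0.42, limma adjusted p = 0.0100), with 94.2% of tested genes lower. Leaving out replicates 1, 2 and 3 gave adjusted p = 0.0833, 0.0712 and 0.0601. Trpm7 and Pkd2 could not be ordered: their mean log2 difference was 0.06 ± 1.33 (SD), and Trpm7 was higher in 1 of 3 libraries. Both lay above every other member in the mean. Pkd2 exceeded the next gene by mean log2 level, Mcoln1, by 2.04 ± 1.06, in 3 of 3 libraries. In replicate 2, however, Tmem63a stood above Pkd2, at 98.5 against 43.7 TPM. Pkd2l1, a paralog that serves as a cilium and acid-related channel, had 1, 1 and 0 reads and was called below 1 TPM (limma adjusted p = 0.0487).

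Trpc1, a subunit of receptor-operated channels, measured 4.01, 14.8 and 16.9 TPM (82, 303 and 325 reads), again lowest in replicate 1. The mean was 11.9 ± 6.92 TPM (SD, n = 3), 2.49 above the log2 level (SE 0.49, limma adjusted p = 0.0487). This call stood at the threshold, and 7 of 9 other settings ended it. Among them were a tested level of 0.5 TPM (adjusted p = 0.0510), limma with a trend (0.0725), TPM rescaled without mitochondrially encoded genes (0.0576) and leaving out replicates 1, 2 and 3 (0.0727, 0.197 and 0.218).

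A further 5 members reached 1 TPM in every library without passing the test, and each was uneven between libraries. Mcoln1, the lysosomal calcium channel mucolipin-1, measured 17.7, 4.56 and 77.3 TPM (341, 88 and 1398 reads), with limma adjusted p = 0.0697. It was highest in replicate 3 and lowest in replicate 2, the order seen for Pkd2. Tmem63a, an osmosensitive stretch channel, measured 7.78, 98.5 and 6.07 TPM (89, 1132 and 65 reads, limma adjusted p = 0.0894), and so owed its mean to replicate 2. Of its exon bases 3.5% lie opposite 2210411M09Rik, which also stood high only in replicate 2 of the 3 libraries (19.6 TPM). The sources used here do not name the strand setting of the counting, and the part of that overlap was not tested.

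Trpm3, a heat- and steroid-activated channel, measured 10.1, 39.0 and 2.50 TPM (limma adjusted p = 0.0985), and its reads could not be recovered from the table. Tmem63b, the paralog of Tmem63a, measured 3.474, 15.04 and 2.315 TPM (45, 196 and 28 reads, limma adjusted p = 0.116). Of its exon bases 2.08% lie opposite Mrpl14, a gene at 105.7, 41.3 and 52.5 TPM, and the part of that overlap was not tested. All of Tmem63a, Tmem63b, Trpm3 and Piezo2 were highest in replicate 2. From Mcoln1 down to Tmem63b in the order of mean level, with Trpc1, Piezo2 and Trpv3 among them, no step to the next gene was larger than its SD over the libraries.

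**Figure D2:**
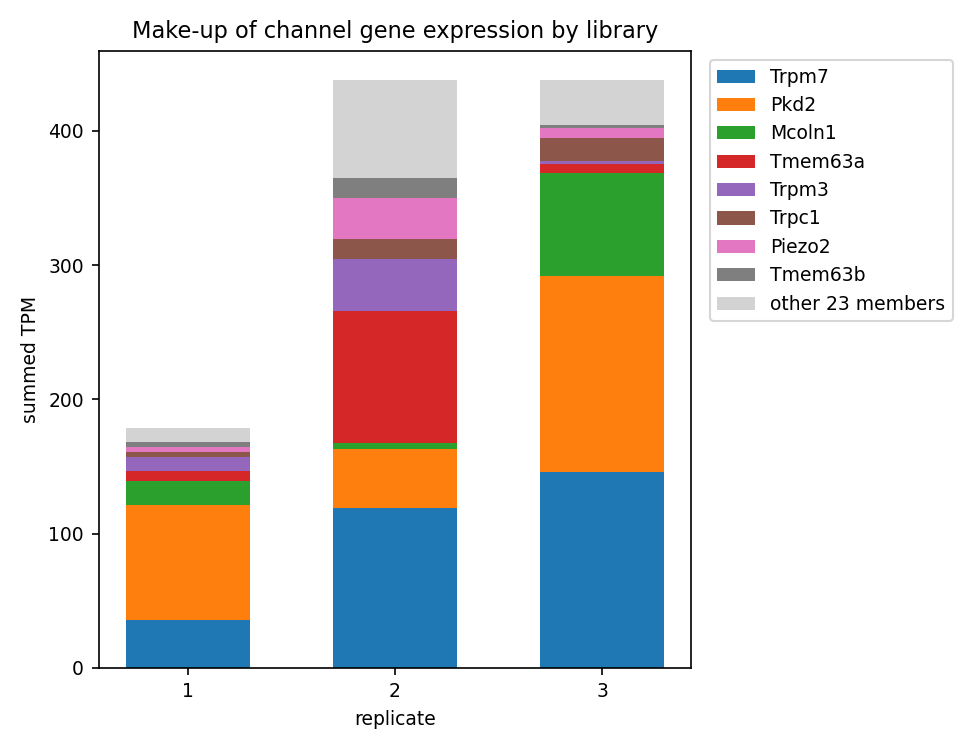
Summed TPM of the 31 channel genes in replicates 1, 2 and 3, as bars stacked by the 8 genes at 1 TPM in every library, with the other 23 genes in grey. Trpm7 and Pkd2 together hold 68.0, 37.2 and 66.6% of the sum.

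The summed level of all 31 members was 178.3, 437.7 and 437.5 TPM (351.1 ± 149.7, SD, n = 3), so replicate 1 held the least. Of that sum, Trpm7 and Pkd2 made up 68.0, 37.2 and 66.6%. By family, the TRPM genes summed to 129.4 ± 71.5 TPM and the polycystins to 91.8 ± 51.4. The Tmem63 genes summed to 47.0 ± 57.9, mucolipins to 33.3 ± 38.8, TRPC to 18.8 ± 15.1, TRPV to 16.6 ± 21.4, Piezo to 14.05 ± 14.4 and TRPA to 0.185 ± 0.206 TPM (each mean ± SD, n = 3). The SD exceeded the mean in the Tmem63, mucolipin, TRPV, Piezo and TRPA families. Without replicate 2 the mean sum dropped to 13.7 TPM for Tmem63, 4.41 for TRPV, 5.82 for Piezo and 10.9 for TRPC, and without replicate 3 to 11.2 for the mucolipins and 0.0688 for TRPA. Of the 14 members that reached 1 TPM in any library, 1 was highest in replicate 1, 7 in replicate 2 and 6 in replicate 3, whereas over all such genes the shares were 33.3, 36.1 and 30.5%. The median SD of log2(TPM + 1) was 1.30 for the 8 members at 1 TPM in every library and 0.96 for all genes of that kind.

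The Piezo genes were far apart. Piezo2, the touch channel of mechanosensory endings, measured 3.82, 30.5 and 7.58 TPM (142, 1135 and 264 reads), a mean of 13.95 ± 14.4 (SD, n = 3) that did not pass the test against 1 TPM (limma adjusted p = 0.0698). Piezo1, its paralog of vessels and many non-neural cells, had 0, 1 and 5 reads and was called below 1 TPM (limma adjusted p = 0.0487). The highest level that its counts allow in any library is 0.491 TPM, the upper bound of the exact 95% Poisson interval, which covers counting error only. Piezo2 exceeded Piezo1 in 3 of 3 libraries, and Piezo1 minus Piezo2 was -3.325 ± 1.397 on the log2(TPM + 1) scale (SD). In the exact two-sided sign-flip permutation test 3 libraries cannot go below p = 0.25, which is the value here (0.2692 after adjustment over 14 pairs). About 24.6% of the exon bases of Piezo1 lie opposite exons of Ctu2, a gene at 17.7 TPM in replicate 3, the library with 5 of the 6 Piezo1 reads, and the part of Ctu2 in those reads was not tested.

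**Figure D3:**
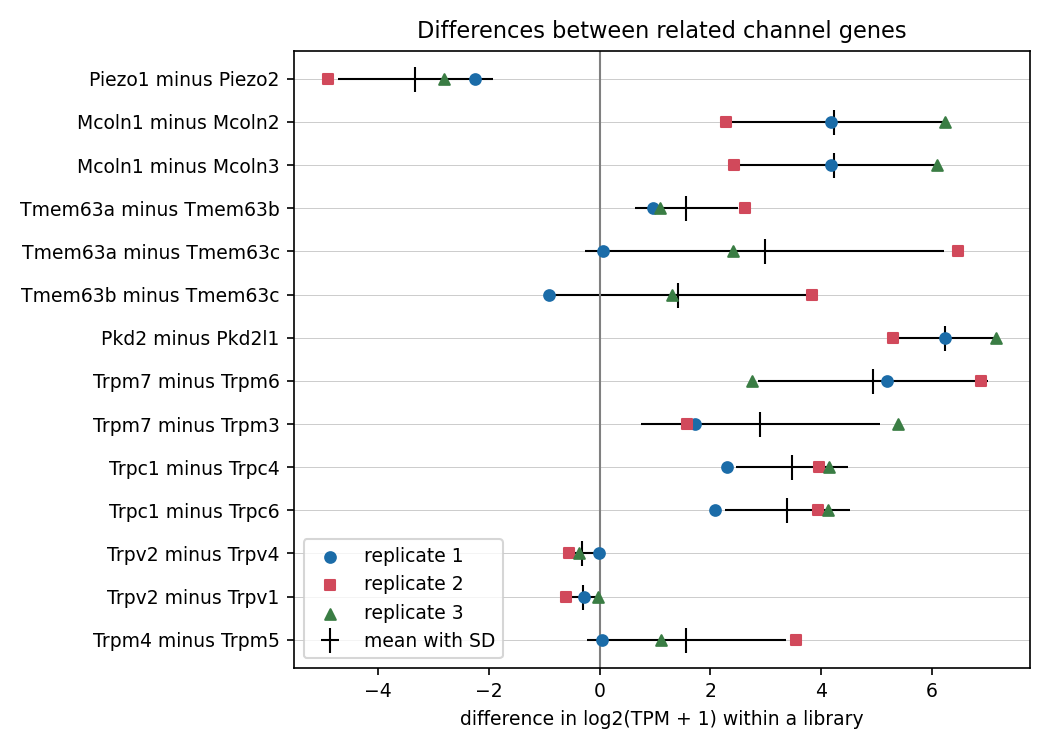
Difference in log2(TPM + 1) between the genes of 14 paralog pairs, with 1 point for each of 3 libraries and a tick and line for the mean with its SD. Piezo1 minus Piezo2 lies below 0 in every library, and Pkd2 minus Pkd2l1 has the highest mean, at 6.23.

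The same comparison was made for other paralogs. Pkd2 exceeded Pkd2l1 by 6.23 ± 0.93, Trpm7 exceeded its close relative Trpm6 by 4.94 ± 2.08, and Mcoln1 exceeded both Mcoln2 and Mcoln3 by 4.24 (SD 1.99 and 1.83), all on the log2(TPM + 1) scale and in 3 of 3 libraries. Trpc1 exceeded Trpc6, a diacylglycerol-gated channel, by 3.39 ± 1.13, and Trpc4 by 3.471 ± 1.012. Tmem63a exceeded Tmem63b by 1.57 ± 0.93 in 3 of 3 libraries, while Tmem63b and Tmem63c differed by 1.42 ± 2.38, with Tmem63b higher in 2 of 3. The adjusted p of each pair was 0.2692 in the exact sign-flip permutation test, except 0.5 for the last, so none could pass the threshold with 3 libraries.

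Another 6 members reached 1 TPM in only 1 or 2 libraries. Trpv3, a warmth-activated channel known from skin, measured 0.688, 39.8 and 4.67 TPM (10, 594 and 65 reads). Trpc5, a cold- and receptor-activated channel of neurons, had 2, 250 and 2 reads, which made 0.176, 19.5 and 0.188 TPM. Trpm4, a calcium-activated channel that passes sodium, measured 0.117, 10.8 and 1.90 TPM (3, 300 and 49 reads). These 3 genes were highest in replicate 2.

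Trpm6, the epithelial magnesium channel, had no read in replicates 1 and 2 and 323 reads in replicate 3, or 20.8 TPM. Trpv6, an epithelial calcium channel, had 0, 1 and 20 reads, or 2.15 TPM in replicate 3. Tmem63c had 77, 1 and 3 reads, which made 7.39 TPM in replicate 1. So each of these genes rested on 1 library, a different one for Tmem63c than for Trpm6 and Trpv6, and in limma none of the 6 was called above or below 1 TPM (adjusted p of 0.258 for Trpv3, 0.681 for Trpc5, 0.508 for Trpm4, 0.754 for Trpm6, 0.541 for Trpv6 and 0.831 for Tmem63c).

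Markers of other cells also differed between these libraries. Of 17 sympathetic neuron markers, 2 were called above 1 TPM and 1 below, with sums of 128, 134 and 343 TPM, and Npy had no read. Macrophage markers summed to 4.07, 172 and 128 TPM, with Aif1 at no read. Mast cell markers summed to 8.92, 4.43 and 16.9 TPM. The part of these cells in the uneven members was not tested.

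**Figure D4:**
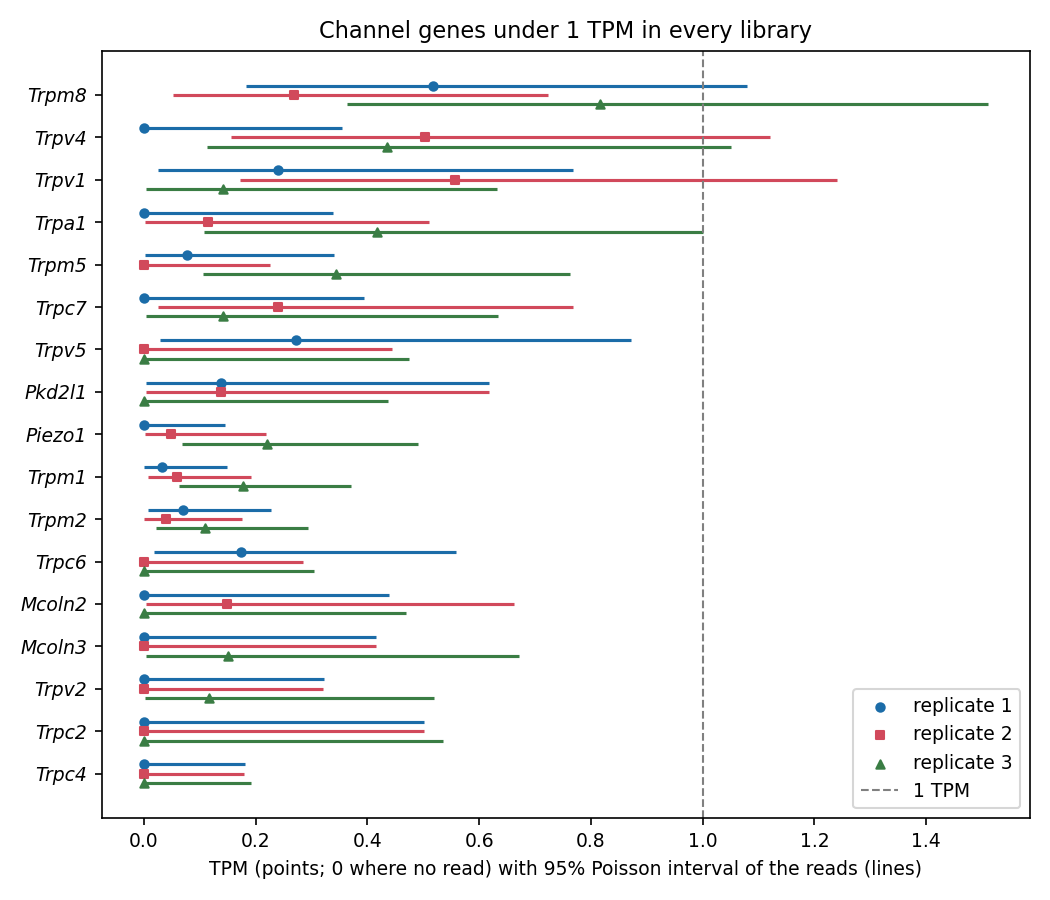
Level of the 17 channel genes under 1 TPM in every library, in TPM, with the exact 95% Poisson interval for each of 3 replicates. The intervals of 13 genes lie under 1 TPM in every replicate, and those of Trpm8, Trpv1, Trpv4 and Trpa1 reach it.

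The receptors best known from pain and temperature neurons were near the floor. Trpv1 had 2, 5 and 1 reads, Trpm8 had 6, 3 and 9, and Trpa1 had 0, 1 and 4. Their means were 0.313 ± 0.217, 0.534 ± 0.275 and 0.185 ± 0.206 TPM (SD, n = 3), and none was called below 1 TPM by limma (adjusted p = 0.0890, 0.209 and 0.0628). Sensory neuron markers were near the floor as well: of 10 none reached 1 TPM in every library, the sums were 1.33, 1.62 and 0.891 TPM, and Calca and Scn10a had no read. Trpv4, an osmotic and stretch channel of many epithelia, had 0, 5 and 4 reads (limma adjusted p = 0.107). By counting error alone, the upper interval bound reached 1 TPM for Trpm8 in replicates 1 and 3, for Trpv4 in replicates 2 and 3, for Trpv1 in replicate 2 and for Trpa1 in replicate 3. In their other libraries it lay between 0.339 and 0.768 TPM.

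The other low members were called below 1 TPM with a few exceptions. Those called were Trpv2 (0, 0 and 1 reads), Trpv5 (2, 0 and 0), Trpc6 (2, 0 and 0), Trpc7 (0, 2 and 1), Trpm1 (1, 2 and 6), Trpm2 (2, 1 and 3), Mcoln2 (0, 1 and 0), Mcoln3 (0, 0 and 1), Pkd2l1 and Piezo1. Their limma adjusted p ran from 0.0487 to 0.0496. These values all sit just under the threshold. At a tested level of 0.5 TPM, or with TPM rescaled without mitochondrially encoded genes, limma called no gene of the whole table below, and so no member. At an unadjusted p under 0.05, 813 and 6224 genes lay below there, 1 and 12 of them members. The members called below were 15 with no filter, 14 with a mean-variance trend and 9 with a pseudocount of 0.1 TPM. Over all genes those settings called 29850 of 52550, 9648 of 27395 and 3775 of 27395 below. Trpm5, a taste-cell channel, had 1, 0 and 5 reads (limma adjusted p = 0.0544). Of its exon bases 3.44% lie opposite Tssc4, a gene at 21.6 TPM in replicate 3, and the part of that overlap was not tested. Trpc2 and Trpc4 had no read in any library and were not tested. For 0 reads the upper bound of the exact 95% Poisson interval was 0.502, 0.502 and 0.536 TPM for Trpc2 and 0.180, 0.179 and 0.192 TPM for Trpc4. For Trpc2 the zero is uncertain, since 97.5% of its exon bases are shared on the same strand with the readthrough gene Xntrpc.

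Members that neighbour each other on a chromosome were unlike in 1 case and alike in another. Trpv1 and Trpv3 lie 6145 bases apart on the plus strand of chromosome 11, and had 8 and 669 reads in total. Trpv6 and Trpv5 lie 15767 bases apart on the minus strand of chromosome 6. They had 21 and 2 reads in total, with 20 of the Trpv6 reads in replicate 3. Mcoln3 and Mcoln2 lie 8026 bases apart on chromosome 3 and had 1 read each in total, whereas Mcoln1, on chromosome 8, had 1827.

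**Figure D5:**
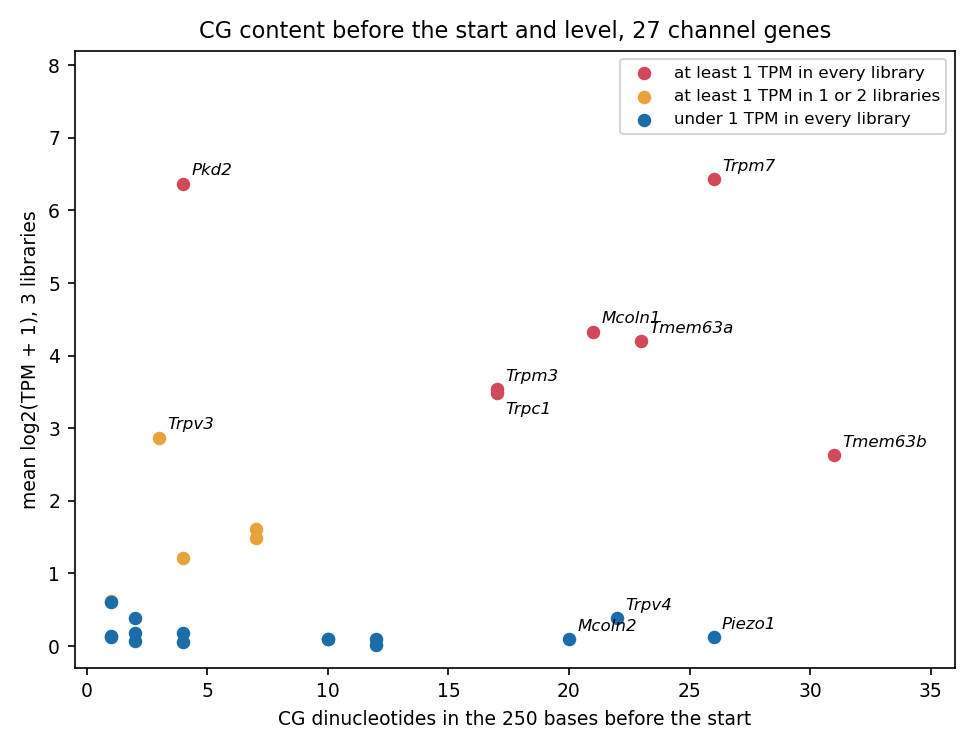
Mean log2(TPM + 1) of 27 channel genes over 3 libraries against the number of CG dinucleotides in the 250 bases before the RefSeq start. Most genes at 1 TPM in every library have at least 15 CG, with Pkd2 at 4 as the exception, and Piezo1, Trpv4 and Mcoln2 have 20 or more at a low level.

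The sequence before the start was examined for the 27 members matched in the RefSeq table used here. Pkd2l1, Piezo2, Trpa1 and Trpm4 were not analysed here. At least 15 CG dinucleotides in 250 bases were found in 6 of 7 members at 1 TPM in every library (85.7%, median 21), against 60.1% of 4587 such genes overall. Among members under 1 TPM in every library the count was 3 of 15 (20.0%), against 17.6% of 10108 genes overall. Pkd2, whose sequence is printed above, was the high member with few CG, and Piezo1, with 26, Trpv4, with 22, and Mcoln2, with 20, were the low members with many. The motif CACGTG, which reads the same on both strands, was present in 4 of 27 members (14.8%), against 6.05% of 27025 RefSeq promoters of the same length. It began at -71 and -45 in Mcoln1 (the second one lies past the stretch printed), at -72 in Mcoln2, at -25 in Trpm7 and at -67 in Trpv3, counted from the RefSeq start. The carriers included Mcoln2, with 1 read in all, as well as Trpm7. On either strand GGGCGG was in 9 members (33.3%, against 32.9% overall), CCAAT in 5 (18.5%, against 34.5%) and TATAAA in 5 (18.5%, against 13.0%). For some members the GENCODE gene begins before the RefSeq start, and the window then lies wholly (Mcoln2 and Tmem63b among them) or partly inside the gene. The CG count of the high members and the share with CACGTG depend on this. Before both starts, Mcoln1, Trpc1 and Tmem63a held 14, 13 and 7 CG in 188, 223 and 76 bases. Trpm7 and Trpm3 kept 26 and 17 in 250 bases. Of the CACGTG carriers, Mcoln1 and Trpm7 held 1 each before both starts and Trpv3 held 0 in 118 bases. None of the Mcoln2 window lay there. No such count was made over all genes.

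Genes that work with the polycystins and mucolipins were read from a list of 11, of which 2 were called above 1 TPM, 3 below and 6 neither. These counts and those of the lists that follow stand beside 16.1% above and 13.5% below over all genes tested. Without replicate 1 or 2, limma called no gene of the whole table above, with 4645 and 4452 genes above at an unadjusted p under 0.05, so no list count above survives there. Without replicate 3 limma called 2434 of the 27395 genes above, against 4424 with all 3 libraries. The list counts without replicate 3 given here stand beside that fall. This first list then had 1 gene above. Lamp1, a lysosomal membrane protein, stood at 454.9 ± 79.9 TPM, and Pikfyve, the kinase that makes the lipid that opens mucolipins, at 45.9 ± 27.05 TPM (SD, n = 3; limma adjusted p = 0.00336 and 0.0290). Tfeb, Vac14 and Pkd1l1 were called below. Pkd1, which encodes the partner of polycystin-2, measured 0.532, 4.34 and 0.214 TPM and was called neither way, so its level was under that of Pkd2 in each library. Of 6 genes of store-operated calcium entry, 1 was called above, 1 below and 4 neither, with 2 above without replicate 3. Saraf, a brake on that entry, was above, at 78.4 ± 29.5 TPM (limma adjusted p = 0.00658), and the pore gene Orai2 was below. The calcium sensor Stim2 measured 69.0, 89.1 and 2.38 TPM and the pore gene Orai1 had 0, 12 and 2 reads.

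The phospholipase C route, by which receptors open TRPC channels, had 7 of 18 genes above, 1 below and 10 neither, and 1 gene was above without replicate 3. The G protein gene Gnaq stood at 146.4 ± 66.5 TPM, the phospholipase gene Plce1 at 129.9 ± 46.7 and Plcb4 at 67.9 ± 44.3 (SD, n = 3). Dgka, Plcb3, Itpr3 and Itpr1 were the other genes called above, and Plcb2 was below. Of 8 genes that supply PIP2, a lipid many TRP channels need, 2 were above (Pi4ka at 39.4 ± 31.2 and Pip4k2a at 34.0 ± 16.4 TPM), 2 below (Pip5k1b and Pip5k1c) and 4 neither, and the count above was 0 without replicate 3. Scaffolds and modulators of TRP channels had 7 of 16 above and 9 neither, and 7 were above without replicate 3. The calmodulin gene Calm2 was at 2452 ± 1105 TPM, the caveolin gene Cav1 at 837.6 ± 100.4 and Iqgap1 at 78.0 ± 12.9. Trpc4ap, named for its binding to TRPC4, whose gene had no read here, was above too, at 13.7 ± 7.10 TPM.

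Of 12 partners or modulators of Piezo channels, 4 were above 1 TPM, 1 below and 5 neither, and 2 had no read. Without replicate 3, 2 were above. Mtmr2, a lipid phosphatase, stood at 122.5 ± 90.0 TPM, Cdh2 at 60.7 ± 38.4, the calcium pump gene Atp2a2 at 55.4 ± 56.6, and Mdfic, whose product binds the Piezo pore, at 50.4 ± 36.6 (SD, n = 3). Tmem150c was below, and Stoml3, a modulator of touch sensitivity, and Mdfi had no read. Of 25 other mechanosensitive or acid-sensing channel genes, 2 were above, 6 below and 15 neither, and 2 had no read. Lrrc8a, the core subunit of the volume-regulated anion channel, stood at 71.8 ± 38.9 TPM and Tmem87b at 46.2 ± 17.8 (limma adjusted p = 0.00828 and 0.00650). Tmem120a measured 0.283, 95.8 and 121.5 TPM, so that replicate 1 stood apart from the other two. The YAP and TAZ route, which carries mechanical signals to the nucleus, had 7 of 13 genes above, 5 neither and 1 without a read, and 2 were above without replicate 3. Cyr61 was at 131.3 ± 110.2 TPM, Lats2 at 82.0 ± 30.6, Wwtr1, which encodes TAZ, at 77.5 ± 57.9 and Ctgf at 37.8 ± 14.9.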

How the data were processed

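The authors deposited 1 table of log2 TPM values for 3 libraries. STAR and featureCounts with GRCm38 (mm10) are named per the submitters' processing notes, while no source used here names versions, annotation, strand setting or the TPM step. The log2 values were turned back to TPM. Reads were then recovered with GENCODE M21 exon lengths: 0.25 read had been added to each gene, and the recovered values lay within 0.00044 of a whole read for 49035 genes with the same ID version. Reads were recovered for 97.88% of genes and for 30 of 31 members, so depths are lower bounds. A library without a read is printed as 0 reads, and its value in means and tests is the added part of a read. Exact 95% Poisson intervals cover counting error only.

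Mean log2(TPM + 1) was tested against 1 TPM with limma 3.58.1 in R 4.3.3 (two-sided, n = 3), over 27395 genes with a read in any library, and the script was tested on simulated data. P-values measure the spread between these 3 libraries, and limma draws each gene's variance toward a value estimated from all genes tested. For genes with a small spread of their own, such as the low members, the SE rests largely on that shared value. Paralogs were compared with an exact sign-flip permutation test. The rule for members uses gene names only, but it, the lists and the tests were drawn up with earlier results of these data known. All members are named. Of each list, up to 6 genes above 1 TPM by mean and up to 3 below or without a read are eligible to be named. Itpr1 was named beyond that limit, and Pkd1, Stim2, Orai1, Tmem120a and Trpc4ap were added after their values were seen. Protein sequences were not analysed here. Other pseudocounts, filters, levels, spread models, a TPM without mitochondrially encoded genes, and leaving out each library were tried.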

Additional observations from a re-analysis of the deposited data

How the results depend on the processing

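The number of members called above 1 TPM (3) became 7 with a pseudocount of 0.1 TPM, where the count over all 27395 genes rose from 4424 to 5267. It was 0 whichever of replicates 1, 2 and 3 was left out. The members above at an unadjusted limma p under 0.05 were then 3, 3 and 2. Over all genes, limma called 2434 above and 4889 below without replicate 3. The number called below (10) became 0 at a tested level of 0.5 TPM and 0 without mitochondrially encoded genes. In those settings limma called no gene of the whole table below, with 1 and 12 members below at an unadjusted limma p under 0.05. A filter at a mean of 0.5 TPM takes out all 10 before testing, so its count of 0 says nothing about them. With that filter limma called 15 of 22425 genes below. The count of members below ranged from 0 to 8 when 1 replicate was left out. Without replicate 1 or replicate 2, limma called no gene of the whole table in either direction, although 3 members lay above and 11 or 12 below at an unadjusted p under 0.05, so the loss there holds for all genes. Against the level tested, the log2 difference changed sign for Trpm6 (-0.76) and Tmem63c (-0.30) with a pseudocount of 0.1 TPM, and for Trpm8 (0.02) and Trpv6 (0.03) at a level of 0.5 TPM. Leaving out 1 replicate gave -0.76 to 1.30 for Trpc5, -0.15 to 1.55 for Trpm4, -0.98 to 1.23 for Trpm6 and -0.71 to 0.74 for Tmem63c. The cause of these changes was not tested, except that each of these 4 genes has most of its reads in the replicate whose absence turned the sign. Of the 14 paralog pairs, 13 have 1 sign in all 3 libraries, so that the alternatives could not turn them. For Trpv2 minus Trpv4 the sign in replicate 1 (-0.003) comes from the added part of a read alone, since neither gene had a read there. The difference Tmem63b minus Tmem63c (1.42) ranged from 0.20 to 2.58 when 1 replicate was left out. No paired analysis was possible because there is 1 group. Of 144 counts recomputed over the partner lists, 74 stayed within 1.5 times the reported one and 70 did not. Those 70 include counts from settings where limma called no gene of the whole table in that direction. They are thus no measure of how stable the lists are. At this depth, the members under 1 TPM in every library rest on 0 to 18 reads each.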
